A study of Homo sapiens with 8 samples.

Results

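H3K27ac, the acetylation of histone H3 at lysine 27, marks active promoters and enhancers. It was measured by chromatin immunoprecipitation and sequencing in clones of the established cell line CFPAC1, which comes from a human pancreatic ductal adenocarcinoma. The peaks described here had less H3K27ac in every library of the clones with a guide against IRF1 than in any library of the control clones. A peak was taken when its mean score over the 8 libraries was at least 20, and when the lowest of the 4 control scores plus 1 was at least 1.5 times the highest of the 4 IRF1-guide scores plus 1. The rule held at 129 peaks of 31961 in all, or 0.512% of the 25184 peaks with a mean score of at least 20. The mirrored rule, with the IRF1-guide clones higher, held at 71 peaks (0.282%). All 8 libraries chose the peaks, so the difference between the genotypes is a description, with no test, and says nothing beyond the choice.

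IRF1-guide clones 11 and 13 came from cells infected with lentiCRISPRv2 expressing wild-type Cas9 and a guide RNA against IRF1. Control clones 1 and 4 came from cells infected with the same plasmid, for which no guide is named. Each clone gave 1 library treated for 2 hours with hIFNb, taken to mean human interferon beta, and 1 untreated library, so each of the 4 groups held 2 libraries of different clones. Each genotype rests on 2 clones, and a difference carried by the 2 picked cells from before the infection cannot be told apart from one that came with the guide. The labels do not say whether IRF1 protein is lost. Scores are the deposited peak values, normalised and rounded to whole numbers by the authors, with totals of 3277561 to 3460390 per library. The read depth behind them is not given, so no counting interval can be set on a score. Of 7 epithelial and ductal marker genes, 6 had a promoter peak, with mean scores of 108 to 711. Of 10 markers of other cell types, 3 had one, with mean scores of 10.8 at CD14, 62.9 at COL1A1 and 237 at PECAM1.

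IRF1 is a transcription factor that interferons and other cytokines induce, and it acts at genes of antiviral defence and antigen presentation. It binds the interferon-stimulated response element (ISRE), whose core is a pair of GAAA repeats. The gamma-activated sequence (GAS) is another element through which interferons act. H3K27ac is laid down by the acetyltransferases EP300 and CREBBP, which transcription factors bring to promoters and enhancers.

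At 8 genes a peak of this set held the annotated start of a protein-coding gene, with 9 RefSeq promoters in all on GRCh38.p14, 2 of them at MAX. Each promoter spans 300 bases, from 250 before the start to 50 from the start on. The promoters at SLFN12L and ADGRG7 are shown because they held a motif linked to interferon signalling, and the promoter of CLIC5 because its peak had the highest ratio among the 8 genes and none of the motifs. Capitals mark the motif letters.
SLFN12L, chr17:35537629-35537928, minus strand: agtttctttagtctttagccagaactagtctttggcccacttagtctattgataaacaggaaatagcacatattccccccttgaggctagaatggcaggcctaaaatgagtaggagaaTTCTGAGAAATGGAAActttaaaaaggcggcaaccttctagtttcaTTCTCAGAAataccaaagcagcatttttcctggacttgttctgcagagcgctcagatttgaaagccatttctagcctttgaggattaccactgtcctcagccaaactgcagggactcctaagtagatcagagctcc
ADGRG7, chr3:100609351-100609650, plus strand: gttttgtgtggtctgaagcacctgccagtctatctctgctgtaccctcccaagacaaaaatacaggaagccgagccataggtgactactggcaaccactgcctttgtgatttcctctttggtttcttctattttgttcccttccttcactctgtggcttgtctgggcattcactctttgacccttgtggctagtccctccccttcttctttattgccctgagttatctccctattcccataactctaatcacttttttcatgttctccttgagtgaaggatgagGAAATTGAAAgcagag
CLIC5, chr6:46015811-46016110, minus strand: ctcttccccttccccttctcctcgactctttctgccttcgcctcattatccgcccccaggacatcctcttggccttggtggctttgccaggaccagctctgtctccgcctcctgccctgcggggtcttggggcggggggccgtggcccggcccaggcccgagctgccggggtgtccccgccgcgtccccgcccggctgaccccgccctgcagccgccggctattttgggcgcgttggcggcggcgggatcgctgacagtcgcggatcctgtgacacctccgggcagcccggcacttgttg

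The motifs were searched on both strands as exact letters. The ISRE core, searched as GAAA and a second GAAA with any 2 bases between them, occurred in 2 of the 9 promoters, at 126 to 117 bases before the SLFN12L start and at 34 to 43 bases after the ADGRG7 start. It occurred in 703 of 22199 protein-coding promoters of the same length (3.17%). The GAS motif TTCNNNGAA occurred in 1 of the 9, in 2 places at SLFN12L, from 132 to 124 bases before the start, where it overlaps the ISRE core, and from 86 to 78 bases before it. It occurred in 6.79% of all promoters. The AP-1 motif TGANTCA, the forkhead motif TGTTTAC and the E-box CACGTG occurred in 0 of the 9, against 6.15%, 2.85% and 8.34% of all promoters. A match describes letters in a window and is not a bound site. The share of G and C in the 9 promoters had a median of 54.3% (43% to 71%), against 62.3% over all promoters.

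The median score of the 129 peaks was 23 and 21 with hIFNb and 22 and 20 untreated in IRF1-guide clones 11 and 13, against 72 and 70 with hIFNb and 54 and 53 untreated in control clones 1 and 4. Over the 25184 peaks with a mean score of at least 20, the medians ran from 61 to 69 in the 8 libraries. These levels are set by the rule, and the 71 peaks of the mirrored rule had the reverse, with median means of 63.2 in IRF1-guide clones and 20 in control clones. The mean over the 4 libraries of a genotype had a median of 20 in IRF1-guide clones (1.75 to 302) and of 60.8 in control clones (30.2 to 669). As log2(score + 1), the IRF1-guide minus control difference had a median of -1.63 and ran from -4.44 to -0.83. On that scale a difference of low scores is understated. The means differed by at least 2-fold at 124 peaks and by at least 3-fold at 72. The ratio of the rule was 2 or more at 23 peaks, 3 or more at 4 and 4 or more at 2.

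**Figure D1:**
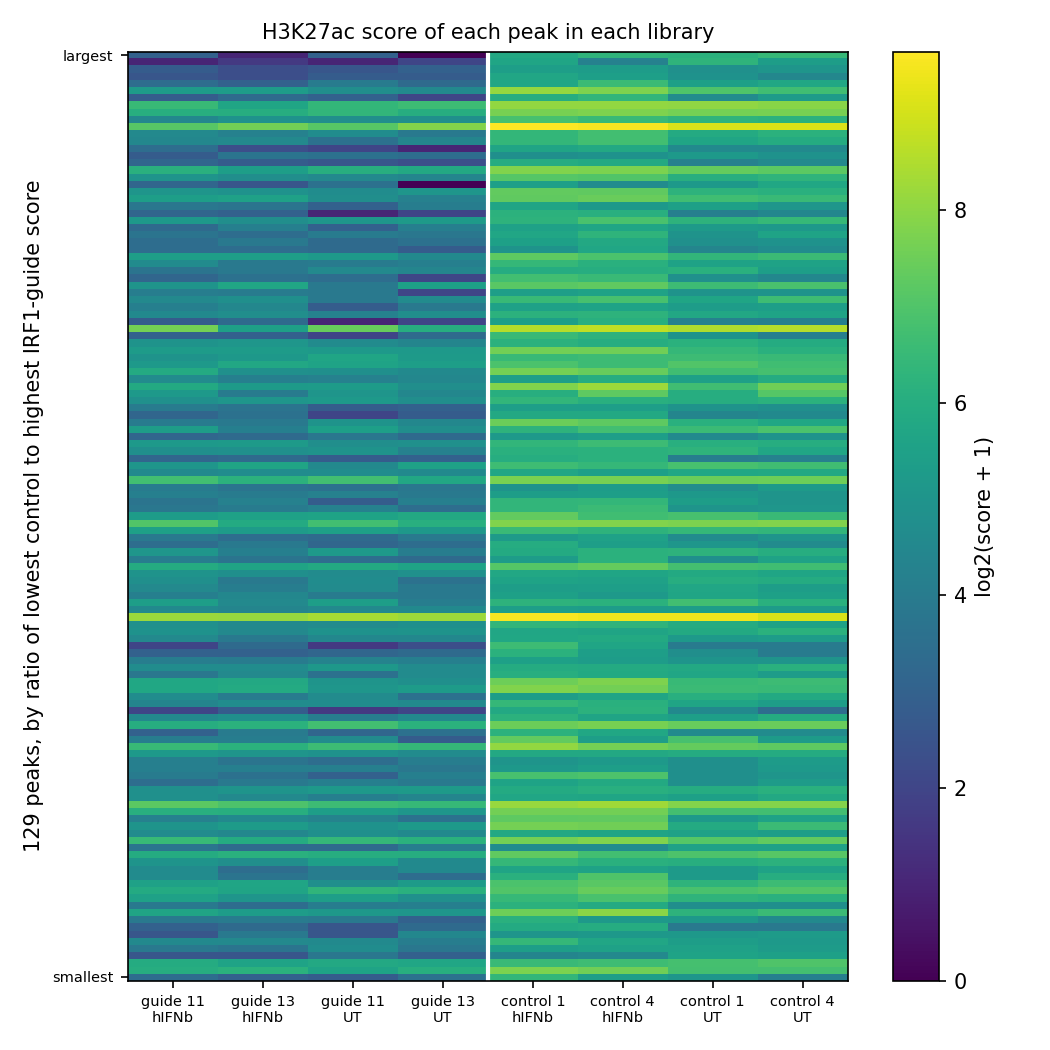
H3K27ac as log2(score + 1) of the 129 peaks (lines) in the 8 libraries (columns, IRF1-guide left of control), with the largest ratio of lowest control to highest IRF1-guide score at the top. The median score is 20 to 23 in the IRF1-guide libraries, against 53 to 72 in the control libraries, a gap that the choice of the peaks sets.

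The widest gap was at chr11:55654552-55659481, 5.2 kb from the start of OR4C6, an olfactory receptor gene. It scored 7 and 1 with hIFNb and 7 and 0 untreated in IRF1-guide clones 11 and 13, against 56 and 77 with hIFNb and 71 and 88 untreated in control clones 1 and 4. H3K27ac there was close to 0 in IRF1-guide clone 13 and low in clone 11, at a ratio of 7.12. The next was chr20:42603919-42606846 inside PTPRT, a receptor tyrosine phosphatase, at a ratio of 4.75. It scored 1 and 2 with hIFNb and 1 and 3 untreated in IRF1-guide clones 11 and 13, against 50 and 18 with hIFNb and 76 and 40 untreated in control clones 1 and 4. Both treatments of both IRF1-guide clones lay at scores of 1 to 3, and control clone 4 lay below control clone 1 in each treatment.

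A peak at LPGAT1-AS1, 12.7 kb from the start of LPGAT1, an acyltransferase of phospholipid metabolism, scored 6 and 4 with hIFNb and 5 and 7 untreated in IRF1-guide clones 11 and 13, against 41 and 39 with hIFNb and 28 and 32 untreated in control clones 1 and 4. In the peak at LINC03046, 22.1 kb from the start of FBXW4, the library scores were 10 and 7 with hIFNb and 15 and 9 untreated in IRF1-guide clones 11 and 13, against 51 and 94 with hIFNb and 44 and 53 untreated in control clones 1 and 4. At both peaks the IRF1-guide scores were 15 or lower in every library, and both control clones scored higher with hIFNb than without it.

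The sixth in order was chr19:39552026-39564098, 17.9 kb from the start of EID2, the gene of an inhibitor of the acetyltransferase EP300. It scored 38 and 39 with hIFNb and 26 and 23 untreated in IRF1-guide clones 11 and 13, against 280 and 217 with hIFNb and 125 and 101 untreated in control clones 1 and 4. The remaining 6 of the 12 largest ratios were at 2.50 to 2.31. They lay 948 kb from CDH2 on chromosome 18, at CLIC5, inside KALRN, 55.7 kb from DYRK2, 64.8 kb from MPP7 and in LINC01374. The chromosome 18 peak had means of 6.25 and 51.2 in IRF1-guide and control clones, the lowest of these 6 in the IRF1-guide clones. KALRN, which encodes the guanine nucleotide exchange factor kalirin, had a peak that scored 65 and 63 with hIFNb and 81 and 63 untreated in IRF1-guide clones 11 and 13, against 203 and 221 with hIFNb and 200 and 202 untreated in control clones 1 and 4. The difference between genotypes there was -1.71 with hIFNb and -1.48 untreated on the log2 scale.

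**Figure D2:**
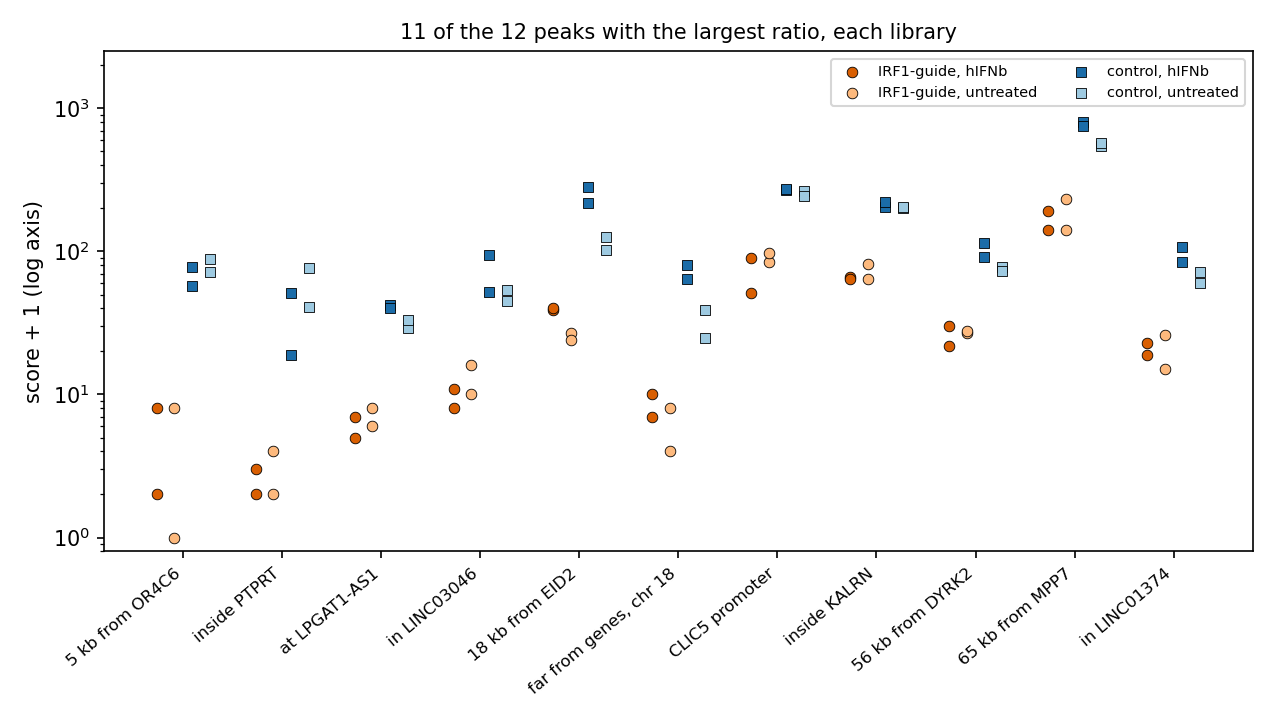
Score + 1 (log axis) in each library at 11 of the 12 peaks with the largest ratio, with IRF1-guide clones as circles left of control clones as squares, and hIFNb left of untreated. The EID2 peak scores 39 and below in the IRF1-guide libraries, against 101 to 280 in the control libraries.

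A protein-coding start lay inside or within 2 kb of 12 of the 129 peaks (9.30%), against 35.2% of the 25184 peaks. Among the 71 peaks of the mirrored rule the share was 9.86%. The 12 peaks were at CLIC5, KALRN, SLFN12L, PAK1, ADGRG7, MCTP2, FRMD3, IGIP, CD74, TRIM31, CDKL1 and MAX. Of these, SLFN12L, PAK1, MCTP2, FRMD3 and MAX lie outside the naming rule and were chosen after their values were seen. CLIC5 encodes a member of the chloride intracellular channel family that is found with the actin cytoskeleton. Its peak, chr6:46007881-46016414, scored 89 and 50 with hIFNb and 83 and 97 untreated in IRF1-guide clones 11 and 13, against 268 and 271 with hIFNb and 265 and 242 untreated in control clones 1 and 4. The control scores spanned a narrow range, and the lowest score was that of IRF1-guide clone 13 with hIFNb.

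SLFN12L belongs to the Schlafen family, several of whose members respond to interferon. The peak at its start, with the ISRE core and GAS letters shown above, scored 42 and 45 with hIFNb and 26 and 18 untreated in IRF1-guide clones 11 and 13, against 157 and 173 with hIFNb and 102 and 92 untreated in control clones 1 and 4. Scores were higher with hIFNb than without it in all 4 clones. ADGRG7 encodes an adhesion G protein-coupled receptor, and its promoter peak scored 31 and 52 with hIFNb and 14 and 44 untreated in IRF1-guide clones 11 and 13, against 143 and 155 with hIFNb and 96 and 116 untreated in control clones 1 and 4. IRF1-guide clone 11 minus clone 13 was -1.16 there on the log2 scale as a mean of both treatments, and scores were higher with hIFNb in each of the 4 clones. MCTP2, a membrane protein gene with C2 domains, scored 58 and 28 with hIFNb and 27 and 23 untreated in IRF1-guide clones 11 and 13, against 199 and 168 with hIFNb and 103 and 111 untreated in control clones 1 and 4. MAX, the partner of MYC in DNA binding, scored 67 and 65 with hIFNb and 41 and 33 untreated in IRF1-guide clones 11 and 13, against 191 and 192 with hIFNb and 107 and 104 untreated in control clones 1 and 4. At MAX the clones of each genotype lay close to each other, and hIFNb libraries lay above untreated ones in both genotypes.

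CD74 encodes the invariant chain of MHC class II, which guides class II molecules through the cell, and is a known target of interferon signalling. Its promoter peak, chr5:150408917-150415567, scored 128 and 59 with hIFNb and 106 and 67 untreated in IRF1-guide clones 11 and 13, against 228 and 225 with hIFNb and 215 and 225 untreated in control clones 1 and 4. The scores changed little with 2 hours of hIFNb, and IRF1-guide clone 11 was above clone 13 in each treatment. TRIM31 encodes a ubiquitin ligase of the tripartite motif family. Its peak was the broadest of the 129, at 41534 bp on chromosome 6, and scored 289 and 285 with hIFNb and 338 and 297 untreated in IRF1-guide clones 11 and 13, against 748 and 688 with hIFNb and 690 and 549 untreated in control clones 1 and 4. CDKL1, a kinase gene, scored 148 and 123 with hIFNb and 97 and 88 untreated in IRF1-guide clones 11 and 13, against 287 and 309 with hIFNb and 233 and 230 untreated in control clones 1 and 4. These CDKL1 scores were higher with hIFNb than without it in each of the 4 clones.

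Of the 8 peaks with the highest mean scores, 4 lay outside promoters of protein-coding genes. The peaks inside PRKCQ and near SPAG4, described below, hold an annotated start that is not of a protein-coding gene. The peak 64.8 kb from MPP7, a scaffold protein gene of cell junctions, was 29281 bp wide and scored 140 and 191 with hIFNb and 140 and 230 untreated in IRF1-guide clones 11 and 13, against 802 and 758 with hIFNb and 546 and 569 untreated in control clones 1 and 4. It had the highest control mean of the 129 peaks together with TRIM31, at 669. Inside PRKCQ, the gene of protein kinase C theta, a peak scored 199 and 44 with hIFNb and 170 and 64 untreated in IRF1-guide clones 11 and 13, against 379 and 426 with hIFNb and 359 and 378 untreated in control clones 1 and 4. There clone 11 exceeded clone 13 by 1.77 on the log2 scale, and the control clones were alike. The peak near SPAG4, at FER1L4, scored 105 and 72 with hIFNb and 104 and 54 untreated in IRF1-guide clones 11 and 13, against 207 and 204 with hIFNb and 178 and 182 untreated in control clones 1 and 4. The fourth, 60.5 kb from SLC39A10, a zinc importer gene, scored 89 and 70 with hIFNb and 98 and 85 untreated in IRF1-guide clones 11 and 13, against 271 and 199 with hIFNb and 166 and 153 untreated in control clones 1 and 4.

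The rule asks for lower scores in every IRF1-guide library, so a lower level in each pair of clones is set by the choice. The median IRF1-guide minus control difference over the 129 peaks was -1.51 for clone 11 minus clone 1 and -1.58 for clone 11 minus clone 4. It was -1.61 for clone 13 minus clone 1 and -1.58 for clone 13 minus clone 4. The deposited column names carry endings that group clone 11 with clone 1 and clone 13 with clone 4, so the first and last of these values are also those within an ending. Between clones of the same genotype, the medians were 0.13 for clone 11 minus clone 13 and -0.01 for clone 1 minus clone 4. Clones 11 and 13 differed by more than 1 on the log2 scale at 10 peaks of the 129, and clones 1 and 4 at 3, against 3.69% and 3.54% of the 25184 peaks. The difference between genotypes had a median of -1.72 in hIFNb libraries and -1.39 in untreated ones. It was more negative with hIFNb than without it at 90 of the 129 peaks, against 48.9% of the 25184 peaks.

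Most of the 129 peaks lay away from gene starts. By the distances in the deposited table, 17 (13.2%) held a transcription start site, against 37.4% of the 25184 peaks. For 35 (27.1%) every named start lay over 50 kb from the edge, against 14.5%. By protein-coding genes, 51 lay up to 50 kb from the nearest start and 66 (51.2%) farther away, against 32.9% of the 25184 peaks. The 71 peaks of the mirrored rule had like shares, with a start inside at 12.7% and every named start over 50 kb away at 25.4%. By protein-coding genes, 53.5% of the 71 lay farther than 50 kb from the nearest start, and 1.41% were at least 20 kb wide. The centre lay in a RefSeq gene body for 85 of the 129 (65.9%, against 69.2%). The median width was 4117 bp, against 4607 bp, and 2 peaks were at least 20 kb wide (1.55%, against 5.76%). For 8 of the 129 peaks a gene lay nearer than the one whose start was at hand, 4 of them on chromosome 8, so those peaks are described by the gene body that holds them or by position.

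Counted by chromosome, the 129 peaks were 16 on chromosome 5, 14 on chromosome 4, 10 on chromosome 3 and 9 each on chromosomes 8 and 10. As a share of the peaks with a mean score of at least 20, chromosome X had the most, with 7 of 588 (1.19%), then chromosome 5 with 1.11%, chromosome 4 with 0.949% and chromosome 8 with 0.892%. Chromosomes 13 and 22 had 0 of 450 and 0 of 486 such peaks. The largest counts of the mirrored rule were 14 peaks on chromosome 1, 10 on chromosome 7 and 8 on chromosome 12. Those chromosomes held 5, 7 and 4 of the 129 peaks. The mirrored rule had 1 peak each on chromosomes 4, 5 and 8, 4 on chromosome 3 and 3 on chromosome 10. The median IRF1-guide minus control difference of a chromosome was taken over its peaks with a mean score of at least 20. It was -0.09 on chromosome 5, -0.08 on chromosome 4, -0.09 on chromosome 8 and -0.06 on chromosome X. On chromosomes 1 and 7 it was 0.15 and 0.11. The lowest chromosome medians were -0.17 on chromosome 20 and -0.12 on chromosome 14, which had 5 of the 129 peaks each (0.690% and 0.512%).

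**Figure D3:**
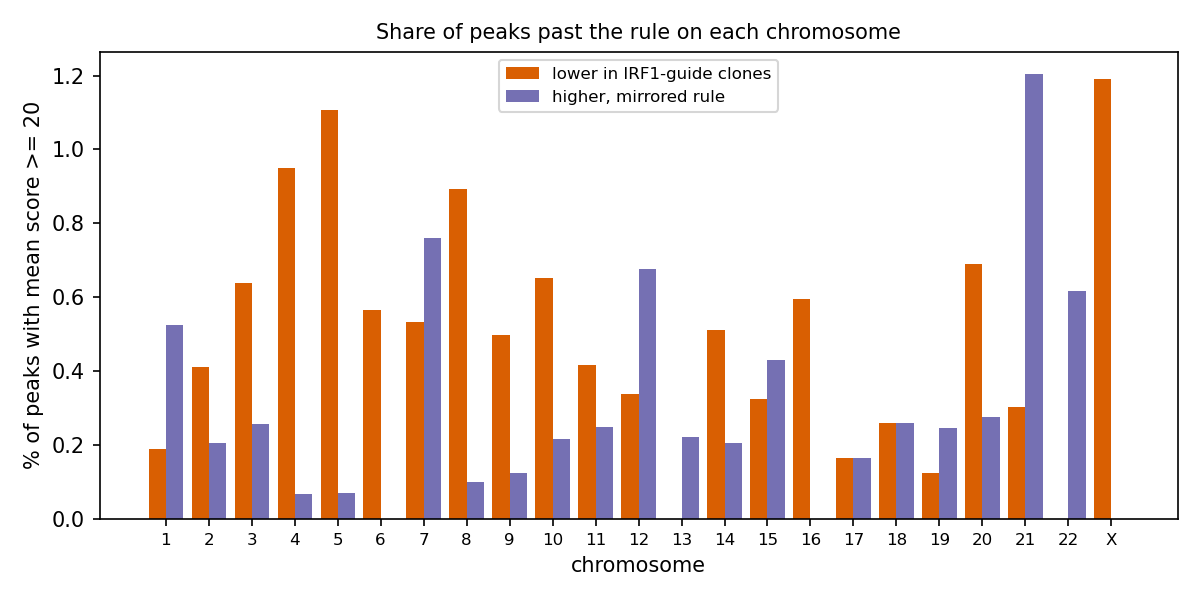
Percent of the peaks with a mean score of at least 20 on each chromosome that met the rule (IRF1-guide lower, left bars) or the mirrored rule (IRF1-guide higher, right bars). Chromosomes X and 5 stand highest for lower peaks, at 1.19% and 1.11%, and chromosome 21 for higher peaks, at 1.20%.

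Peaks close to the 129 were also lower in IRF1-guide clones. Among 149 other peaks with a mean score of at least 20 within 50 kb of one of them, 80.5% had a lower mean log2 score in IRF1-guide clones, and the median difference was -0.33. Among 1185 peaks at 50 to 500 kb it was 62.1% with a median of -0.10, and among 7741 peaks at 500 to 5000 kb it was 57.0% with a median of -0.06. Over all 24984 peaks that met neither rule, 51.9% were lower and the median was -0.01. The neighbours share the libraries and the locus with the chosen peaks, so these values are a description of how far the difference reached. Around the 71 peaks of the mirrored rule, 7.61% of 92 peaks within 50 kb were lower and the median was 0.44.

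**Figure D4:**
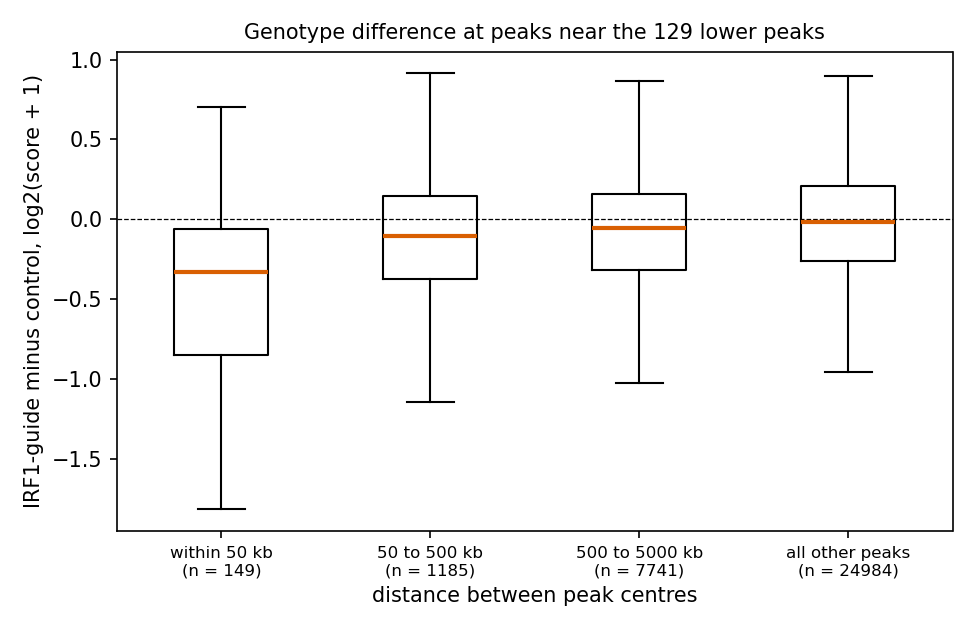
IRF1-guide minus control difference of log2(score + 1) at other peaks by distance from any of the 129 peaks (box, quartiles with the median, whiskers without outlying points). A peak counts in each class whose distance separates it from at least 1 of the 129 peaks. The median is -0.33 within 50 kb and -0.01 over all other peaks, which include the 3 distance classes.

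Several of the 129 peaks lay together. ADGRG7 had 3 of them, the promoter peak and peaks that began 11.6 kb and 33.3 kb beyond its end inside the gene. The middle one, chr3:100628053-100631593, scored 16 and 15 with hIFNb and 14 and 3 untreated in IRF1-guide clones 11 and 13, against 41 and 46 with hIFNb and 30 and 30 untreated in control clones 1 and 4. Pairs lay at KALRN, CLNK, PCDH7, CSMD1, MPP7 and SMPD3, and from SH3KBP1 to MAP7D2 on the X chromosome. The CSMD1 pair on chromosome 8 was 3.98 kb apart with no peak between. Its first peak scored 12 and 9 with hIFNb and 9 and 16 untreated in IRF1-guide clones 11 and 13, against 25 and 25 with hIFNb and 45 and 45 untreated in control clones 1 and 4, and its second scored 5 and 5 with hIFNb and 13 and 7 untreated in IRF1-guide clones 11 and 13, against 20 and 22 with hIFNb and 47 and 44 untreated in control clones 1 and 4. In this pair both control clones scored lower with hIFNb than without it, and neither peak was called without the clone as a block. With the block, the second was called lower over all clones and in control clones (limma adjusted p = 0.0105 and 0.0474). The SMPD3 pair was 47.3 kb apart with no other peak between. SMPD3 encodes a neutral sphingomyelinase, and the peak inside the gene scored 64 and 71 with hIFNb and 47 and 65 untreated in IRF1-guide clones 11 and 13, against 212 and 185 with hIFNb and 107 and 109 untreated in control clones 1 and 4. The other peak, upstream at 21.8 kb from the start, scored 8 and 7 with hIFNb and 1 and 3 untreated in IRF1-guide clones 11 and 13, against 73 and 67 with hIFNb and 17 and 21 untreated in control clones 1 and 4.

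The response to 2 hours of hIFNb was tested with limma on log2(score + 1), with adjustment over all 31961 peaks and a call at an adjusted p under 0.05. The rule treats hIFNb and untreated libraries alike, so it does not set the direction of a response, but it limits its size. An IRF1-guide score that came up to the control scores, or a control score that came down to the IRF1-guide scores, would have removed the peak. In IRF1-guide clones 0 of the 129 peaks were called by limma, against 1.20% of all peaks that rose and 0.0250% that fell, and 12 (9.30%) were higher and 1 (0.775%) lower at an unadjusted p under 0.05, against 7.75% and 4.97% of all peaks. In control clones H3K27ac rose at 16 of the 129 peaks and fell at 0, against 4.07% and 0.676% of all peaks, and 44 (34.1%) were higher and 2 (1.55%) lower at an unadjusted p under 0.05, against 11.9% and 7.65%. Averaged over all clones, 19 rose and 0 fell, against 6.55% and 2.58% of all peaks. The difference between the responses passed at 0 peaks, with 0 higher and 14 (10.9%) lower in IRF1-guide clones at an unadjusted p under 0.05, against 1.09% and 2.85% of all peaks. A response called in control clones and not in IRF1-guide clones is therefore not shown to differ between them at the peaks as a set.

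The clone as a block moved these counts. With it, 13 rose and 1 fell in IRF1-guide clones, against 7.44% and 6.64% of all peaks. In control clones 45 rose and 1 fell, against 13.4% and 11.3%. Over all clones 39 rose and 1 fell, against 16.6% and 15.9%, and the difference was called at 3 peaks, all lower in IRF1-guide clones, against 0.106% higher and 0.657% lower. The counts without the block also depended on single libraries. Over all clones, 12 of the 129 peaks (9.30%) rose without untreated IRF1-guide clone 11, against 4.53% of all peaks. Without treated IRF1-guide clone 11 it was 10 (7.75%, against 3.90%), and without treated IRF1-guide clone 13 also 10 (against 4.64%). Without a control library the share was nearer to that of all peaks. It was 6 (4.65%, against 4.16%) without untreated clone 1, 8 (6.20%, against 4.58%) without untreated clone 4, 7 (5.43%, against 3.63%) without treated clone 1 and 6 (4.65%, against 4.07%) without treated clone 4. In control clones 1 peak (0.775%) rose without untreated clone 1 and 2 (1.55%) without untreated clone 4, against 1.51% (482 peaks) and 481 peaks of all 31961. Without treated clone 1 or treated clone 4 it was 0, against 0.604% and 1.13%. The larger share of called rises among the 129 peaks in control clones was thus seen with all 4 control libraries. With 1 left out, a control group held 1 library, and too few rises were called among the 129 peaks to compare shares. Calls over all peaks became fewer in these fits too. The median log2 change in control clones over the 129 peaks stayed at 0.41 to 0.47 with 1 control library left out. Over all peaks it was -0.035 to 0.064.

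The median log2 change with hIFNb was 0.13 in IRF1-guide clones and 0.49 in control clones over the 129 peaks. Over the 25184 peaks it was -0.0060 in IRF1-guide clones and -0.014 in control clones. By clone, the medians over the 129 peaks were 0.11 and 0.12 in IRF1-guide clones 11 and 13, against 0.44 and 0.47 in control clones 1 and 4. Both IRF1-guide clones were higher with hIFNb at 47 peaks, against 33.3% of the 25184 peaks, and both control clones at 91, against 34.8%. Both treated libraries lay above both untreated ones at 29 peaks in IRF1-guide clones, against 22.5%, and at 78 in control clones, against 24.9%. Both IRF1-guide clones were lower and both control clones higher with hIFNb at 12 peaks, against 3.78% of the 25184 peaks. The reverse held at 5, against 3.80%. The median of the IRF1-guide response minus the control response was -0.34 over the 129 peaks and 0.0094 over the 25184 peaks.

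**Figure D5:**
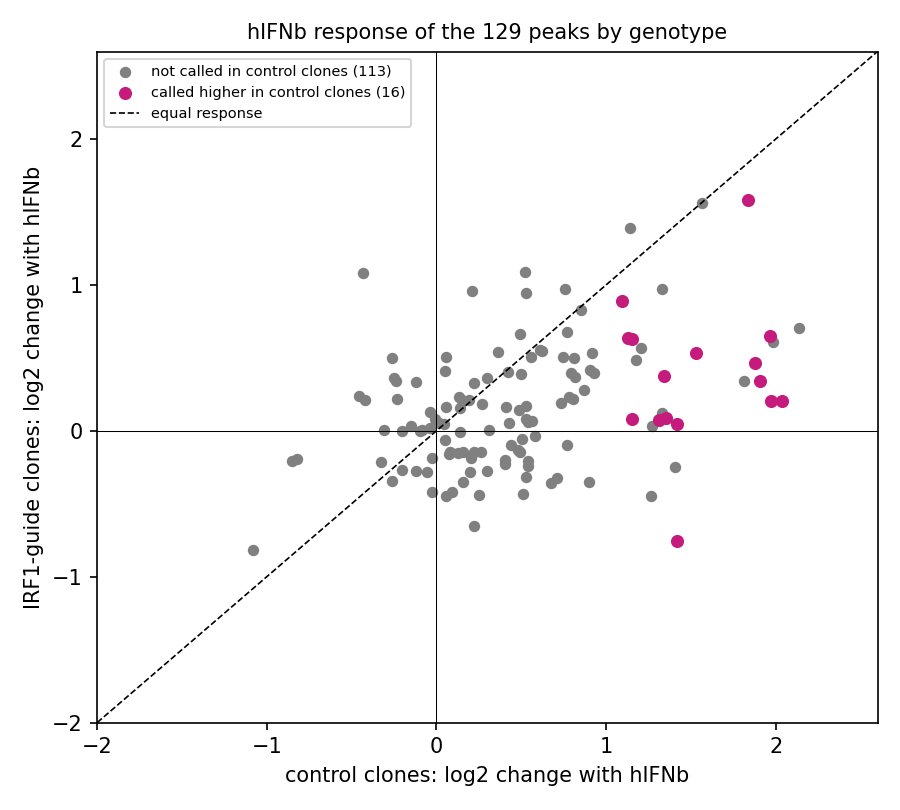
Log2 change of score + 1 with hIFNb at each of the 129 peaks, IRF1-guide clones (vertical) against control clones (horizontal), with the line of equal response. The 16 peaks called higher in control clones have control changes of 1.09 to 2.04, and most points lie right of 0.

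Among the called peaks, the one 92.6 kb from COL8A1, a collagen gene, scored 18 and 23 with hIFNb and 19 and 11 untreated in IRF1-guide clones 11 and 13, against 150 and 155 with hIFNb and 36 and 46 untreated in control clones 1 and 4. Its log2 change was 0.46 ± 0.32 (SE) in IRF1-guide clones and 1.88 ± 0.32 in control clones (limma adjusted p = 0.586 and 0.0108). A peak inside TASOR2 scored 15 and 11 with hIFNb and 7 and 17 untreated in IRF1-guide clones 11 and 13, against 114 and 123 with hIFNb and 27 and 32 untreated in control clones 1 and 4, with a change of 0.21 ± 0.40 in IRF1-guide clones and 1.97 ± 0.40 in control clones (limma adjusted p = 0.859 and 0.0213). The peak next to IGIP, inside PURA, scored 8 and 9 with hIFNb and 6 and 7 untreated in IRF1-guide clones 11 and 13, against 63 and 70 with hIFNb and 16 and 18 untreated in control clones 1 and 4. The control libraries with hIFNb lay at several times the untreated ones at these 3 peaks, while the IRF1-guide scores stayed at 23 or below in every library. An intergenic peak on chromosome 5, chr5:89869573-89872309, scored 7 and 9 with hIFNb and 5 and 9 untreated in IRF1-guide clones 11 and 13, against 59 and 62 with hIFNb and 14 and 14 untreated in control clones 1 and 4. Inside FAM186A a peak scored 8 and 11 with hIFNb and 10 and 3 untreated in IRF1-guide clones 11 and 13, against 105 and 91 with hIFNb and 28 and 21 untreated in control clones 1 and 4. Both had control changes of about the same size, 2.04 ± 0.39 and 1.97 ± 0.47 (limma adjusted p = 0.0173 and 0.0423).

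Other peaks were higher with hIFNb in both genotypes. At the SMPD3 peak upstream of the gene, the change was 1.58 ± 0.44 in IRF1-guide clones and 1.83 ± 0.44 in control clones, and 1.71 ± 0.31 over all clones (limma adjusted p = 0.00786). At MAX it was 0.83 ± 0.22 in IRF1-guide clones and 0.85 ± 0.22 in control clones, and 0.84 ± 0.16 over all clones (limma adjusted p = 0.00865). SLFN12L had 0.97 ± 0.26 in IRF1-guide clones and 0.76 ± 0.26 in control clones, and 0.87 ± 0.18 over all clones (limma adjusted p = 0.0155). The peak inside LRP1B on chromosome 2 had 1.56 ± 0.48 in each genotype, and 1.56 ± 0.34 over all clones (limma adjusted p = 0.0180). Its scores were 6 and 9 with hIFNb and 1 and 3 untreated in IRF1-guide clones 11 and 13, against 43 and 67 with hIFNb and 18 and 17 untreated in control clones 1 and 4. Calls over all clones at SMPD3, at MAX, at a peak inside NCALD and at a peak 19.3 kb from ADGRF3 were kept whichever of the 8 libraries was left out. The NCALD peak scored 53 and 56 with hIFNb and 31 and 27 untreated in IRF1-guide clones 11 and 13, against 181 and 222 with hIFNb and 90 and 97 untreated in control clones 1 and 4. The low level in IRF1-guide clones and a higher level with hIFNb were thus seen together at these peaks.

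Peaks near SLCO2A1 and TNIK were also called over all clones, at changes of 1.42 ± 0.38 and 1.30 ± 0.36 (limma adjusted p = 0.0448 and 0.0499). Their IRF1-guide scores were 9 or lower in every library. Whichever library was left out, the call near TNIK was lost, and the call near SLCO2A1 was lost with nearly all of them. No call in control clones, those named above and below included, was kept in every such fit. Those fits had no block and left a group with 1 library. With all 8 libraries and the clone as a block, which called more of all peaks too, each call in control clones was kept. The limma adjusted p over all clones was then 0.000882 near SLCO2A1 and 0.00369 near TNIK. Among the called peaks chosen after their values were seen, GCH1, the rate-limiting enzyme gene of tetrahydrobiopterin synthesis, had a peak inside the gene. It scored 13 and 15 with hIFNb and 18 and 10 untreated in IRF1-guide clones 11 and 13, against 81 and 94 with hIFNb and 31 and 33 untreated in control clones 1 and 4, and was called in control clones (1.42 ± 0.34, limma adjusted p = 0.0427). A peak 92.0 kb from MAP3K8, a kinase gene of inflammatory signalling, scored 32 and 29 with hIFNb and 25 and 33 untreated in IRF1-guide clones 11 and 13, against 161 and 157 with hIFNb and 74 and 68 untreated in control clones 1 and 4. It was called in control clones as well (1.15 ± 0.25, limma adjusted p = 0.0280).

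The protein-coding gene with the nearest start within 50 kb was in 1 of the 14 gene lists for 2 of the 129 peaks, CD74 from antigen processing and GCG, the proglucagon gene, from the markers of other cell types. That was 2 of 868 list-linked peaks with a mean score of at least 20 (0.230%), near the share over all linked peaks of that score, 63 of 16892 (0.373%). Interferon-stimulated genes had 0 of 79 such peaks in the set, the median IRF1-guide minus control difference of the list was -0.36, and the nearest to the rule was GBP4 at a ratio of 1.48. The antigen processing list had 1 of 40 and a median of -0.39. The markers of other cell types had 1 of 21, and the remaining 12 lists had 0. Among them, the lists of cholesterol and fatty acid, carbohydrate, and xenobiotic, steroid and retinoid metabolism had 0 of 87, 0 of 52 and 0 of 88. The peak near GCG lay 33.4 kb from its start and scored 14 and 10 with hIFNb and 16 and 17 untreated in IRF1-guide clones 11 and 13, against 72 and 59 with hIFNb and 26 and 27 untreated in control clones 1 and 4. It lies at the threshold of the rule, and H3K27ac at this distance does not measure expression of GCG.

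IRF1 itself was not in the set. The peak over the gene, chr5:132442197-132506408, scored 2265 and 2033 with hIFNb and 1332 and 1187 untreated in IRF1-guide clones 11 and 13, against 3003 and 2159 with hIFNb and 2014 and 1306 untreated in control clones 1 and 4. The groups overlapped, and the difference of the means was -0.31 on the log2 scale. H3K27ac at the locus does not measure the protein or the edit.

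The edge of the set was dense. A ratio of exactly 1.5 was found at 12 of the 129 peaks, and 66 further peaks with a mean score of at least 20 had a ratio from 1.4 to just under 1.5. Just inside, the peak nearest to ADGRL2 scored 45 and 32 with hIFNb and 42 and 28 untreated in IRF1-guide clones 11 and 13, against 88 and 116 with hIFNb and 76 and 68 untreated in control clones 1 and 4. Inside PCDH7, the protocadherin gene, a peak scored 49 and 39 with hIFNb and 34 and 33 untreated in IRF1-guide clones 11 and 13, against 181 and 250 with hIFNb and 74 and 94 untreated in control clones 1 and 4, and GCG is given above. Just outside, the peak linked to UACA, at a ratio of 1.49, scored 111 and 128 with hIFNb and 109 and 122 untreated in IRF1-guide clones 11 and 13, against 237 and 282 with hIFNb and 191 and 203 untreated in control clones 1 and 4. The peak linked to IRAG2 scored 24 and 28 with hIFNb and 33 and 36 untreated in IRF1-guide clones 11 and 13, against 56 and 81 with hIFNb and 54 and 57 untreated in control clones 1 and 4. The peak linked to BMP2 scored 114 and 91 with hIFNb and 147 and 121 untreated in IRF1-guide clones 11 and 13, against 219 and 222 with hIFNb and 256 and 248 untreated in control clones 1 and 4. In ratio, the set thus grades into the peaks just outside it.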

How the data were processed

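H3K27ac chromatin immunoprecipitation from 8 libraries was analysed from the deposited table of 31961 peaks. Bowtie2 and the build GRCh38 (hg38) are named in the submitters' processing notes. How peaks were called and merged and how scores were scaled was not given in the sources used here. All values are scores that the authors normalised and deposited as whole numbers. Between 10 and 30 whole numbers below or at 100 are missing from 6 columns and 0 from those of untreated control clones, so rounding and scaling may differ between columns. Without a block, the p-values measure only how libraries of separate clones vary. With the clone as a block, they measure how the hIFNb response varies between the 2 clones of a genotype.

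Scores were analysed as log2(score + 1) in limma 3.58.1 (R 4.3.3), with a mean per group of libraries, a trend of variance on level, and p-values adjusted by Benjamini-Hochberg over all peaks. The code was tested on simulated data. The genotype difference was not tested, since the rule used it. Samples were grouped by the labels, and the clone number pairs the libraries of a clone. After each group's mean was taken off, the pair of libraries of a clone correlated across peaks at 0.392 in IRF1-guide clones and 0.437 in control clones. A further fit had the clone as a block.

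Peaks were assigned the protein-coding gene with the nearest start within 50 kb of the centre, and a peak was called a promoter peak with a start inside or within 2 kb. Starts came from the distances in the deposited table and from RefSeq promoters (GRCh38.p14), and gene bodies from RefSeq. No genome was used here, so sequences of the peaks themselves were not read. The peaks, the 14 lists and the tests were chosen with earlier results of these data known. The naming rule took the 12 largest ratios, the 8 highest mean scores, up to 4 peaks per list, the 3 peaks on each side of the threshold, up to 5 called peaks per direction and hIFNb comparison, and runs of neighbouring peaks. Other genes are named after their values were seen, those of the promoter, pair and called peaks outside that rule included. The values of 1 of the 12 peaks with the largest ratios are not reported here. Alternatives were another pseudocount, filter, scaling, ratio and offset, single libraries left out, and blocks.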

Additional observations from a re-analysis of the deposited data

Results flagged for a closer look

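In the fit without a block, the difference between the hIFNb responses of the genotypes passed at none of the 129 peaks, and at 0 of all 31961. With the clone as a block, 3 of the 129 passed (limma adjusted p), all lower in IRF1-guide clones. Of all peaks, 0.657% were called lower and 0.106% higher in that fit. Each SE in this section is that of the fit without a block. At FRMD3 on chromosome 9, which encodes a FERM domain protein, the peak scored 15 and 14 with hIFNb and 30 and 21 untreated in IRF1-guide clones 11 and 13, against 178 and 150 with hIFNb and 69 and 53 untreated in control clones 1 and 4. Its IRF1-guide minus control difference in response was -2.17 ± 0.41 (SE), with an adjusted p of 0.00192 under the block and 0.711 without it. A peak inside CDKAL1, a tRNA-modifying enzyme gene on chromosome 6, scored 38 and 38 with hIFNb and 36 and 36 untreated in IRF1-guide clones 11 and 13, against 194 and 186 with hIFNb and 85 and 68 untreated in control clones 1 and 4. The difference there was -1.23 ± 0.33, with an adjusted p of 0.0294 under the block. The peak chr8:53520968-53529589 scored 31 and 38 with hIFNb and 29 and 36 untreated in IRF1-guide clones 11 and 13, against 200 and 186 with hIFNb and 59 and 95 untreated in control clones 1 and 4. Its difference was -1.27 ± 0.40, with an adjusted p of 0.0396 under the block.

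Among the other peaks that the naming rule took and that are reported here, 4 were lower with hIFNb in both IRF1-guide clones and higher in both control clones. They are some of the 12 such peaks of the 129 counted above. No test of the difference passed at these peaks, with or without the block. The differences in response were -1.71 ± 0.45 near GCG, -0.75 ± 0.33 near SLC39A10, -0.36 ± 0.24 at TRIM31 and -0.94 ± 0.57 near FBXW4.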

How the results depend on the processing

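The number of peaks in the set moved with the thresholds. It was 342 at a required ratio 0.25 lower, 23 at a ratio of 2, 50 at a mean score of at least 50, 750 from untreated libraries alone and 1418 from hIFNb libraries alone. Leaving out 1 library gave 137 to 229, with 225 without untreated IRF1-guide clone 11, 229 without treated IRF1-guide clone 11 and 225 without untreated control clone 4. Median-centred and quantile-normalised scores gave 107 peaks each, of which 102 and 101 were among the 129. The median genotype difference was -1.44 with a pseudocount of 4, and -1.71 to -1.54 with 1 library left out. With the clone number as a replicate block, hIFNb calls among the 129 peaks numbered 40 over all clones, 14 in IRF1-guide clones, 46 in control clones and 3 for the difference, against 19, 0, 16 and 0 without it. That block also called more of all peaks. It called 16.6% of them higher and 15.9% lower over all clones, and 7.44% and 6.64% in IRF1-guide clones. In control clones it called 13.4% and 11.3%, and for the difference 0.106% and 0.657%. Blocking by the ending of the column name, an alternative added after seeing the data, gave 25 calls in control clones, all higher. Of all peaks, 6.60% were called higher and 2.76% lower in that fit. By that ending, deviations correlated at 0.0988 with hIFNb and 0.0910 untreated. Leaving out 1 library gave 6 to 18 calls over all clones, 0 in IRF1-guide clones, 0 to 17 in control clones and 0 for the difference. A pseudocount of 4, a filter on the mean score and both rescalings kept each count of hIFNb calls within 1.5 times its value. No read depth is given, so the counting error of low scores, such as those of 0 to 7 near OR4C6, cannot be set. A library left out leaves a group with 1 library, which is then assumed to vary like the other groups.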
